A study of Mus musculus with 6 samples.

Results

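A set of 10 transcription factor genes that are active in resting T cells was followed from total RNA into the RNA recovered with YTHDF2 in regulatory T (Treg) cells of mouse tumours. They are Foxo1, Foxo3, Bach2, Satb1, Tcf7, Lef1, Klf2, Ets1, Runx1 and Ikzf1. The genes were chosen by name and Ensembl identifier (ID), and all 10 were found among the 54446 gene IDs of the count files. All 10 also passed the filter on low counts, which kept 15615 genes, so no gene of the list is missing below.

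The cells were wild-type CD45+CD4+ Treg cells carrying a Foxp3-GFP reporter, sorted as GFP+ from subcutaneous B16F10 tumours. B16F10 is a mouse melanoma line. One group of 3 libraries holds RNA precipitated with an antibody against mouse YTHDF2 (the IP), and the other group of 3 holds RNA from the lysate before precipitation (the Input, for which 10% of the lysate was kept). Both groups therefore share the genotype, the tumour and the sort. Libraries are numbered 1 to 3 in each group. The labels used here give no age, sex or strain of the mice and do not say whether a number stands for 1 mouse or a pool. P-values thus cover only how far these libraries spread, and that spread may be technical. No precipitation with a control antibody was analysed here, so enrichment means a higher relative level in the IP than in the Input.

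YTHDF2 is a cytoplasmic reader protein. It binds mRNA that carries N6-methyladenosine (m6A) and brings it to the deadenylation and decay machinery, which shortens the life of the transcript. The factors examined here belong to the programme of naive, memory and quiescent T cells. FOXO1 and KLF2 keep genes for survival and recirculation on, TCF1 and LEF1 (the products of Tcf7 and Lef1) maintain T cell identity, and BACH2 holds back effector genes. SATB1, RUNX1, ETS1 and Ikaros (the product of Ikzf1) act earlier and more broadly, in T cell development and in the setting of the Treg gene programme.

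Gene-assigned reads numbered 10029733 to 14704617 in the Input libraries and 6847731 to 8465453 in the IP libraries. Genes with any read numbered 33344, 29354 and 26250 in Input libraries 1, 2 and 3, and 19991, 18501 and 14200 in the IP libraries. Library 1 thus detected the most genes in each group and library 3 the fewest. The part of this in the spread between libraries was not tested. The 10 genes together took 0.24% ± 0.026 (SD, n = 3) of gene-assigned Input reads and 0.30% ± 0.029 (SD, n = 3) of those in the IP. No gene of the list had fewer than 143 reads in a library, and the highest count was 18172. Of all reads in a file, 71.7% ± 0.434 (SD, n = 3) fell outside annotated features in the IP, against 50.4% ± 1.08 (SD, n = 3) for the Input. Levels below are CPM, the reads of a gene relative to the size of its library, with sizes scaled by the trimmed mean of M-values (TMM). Ensembl IDs other than those of the 10 genes could not be paired with symbols from the files or the reference table. For this reason the markers of Treg cells, of other cell types and of melanoma, and Ythdf2 itself, were not examined. A wider list of resting T cell genes was left out for the same reason.

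Runx1 and Satb1 were enriched with YTHDF2, by 2.48-fold and 2.22-fold, and the other 8 genes did not pass the test in either direction. Calls rest on edgeR's quasi-likelihood model, fitted to all 15615 genes, at a Benjamini-Hochberg adjusted p under 0.05. The count of 2 enriched genes of 10 stands beside 4.33% of all genes tested that were enriched and 6.11% that were depleted. Calls are more frequent among abundant genes, and all 10 genes lie in the quartile of highest mean level, the 3904 genes from 49.9 CPM. In that quartile 14.7% of genes were enriched and 16.9% depleted. The 2 of 10 genes enriched here are close to that share. None of the 10 was depleted; at an unadjusted p under 0.05 the count was also 0, and DESeq2 and limma voom gave 0 as well. Of the 16 alternative settings, 3 gave 1 depleted gene: Tcf7 without IP library 1 and with a replicate block, and Ets1 with library sizes from all reads. Over the 10 genes the median log2 fold change was 0.23, against 0.10 for genes of the upper quartile and -0.12 for all genes tested.

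**Figure D1:**
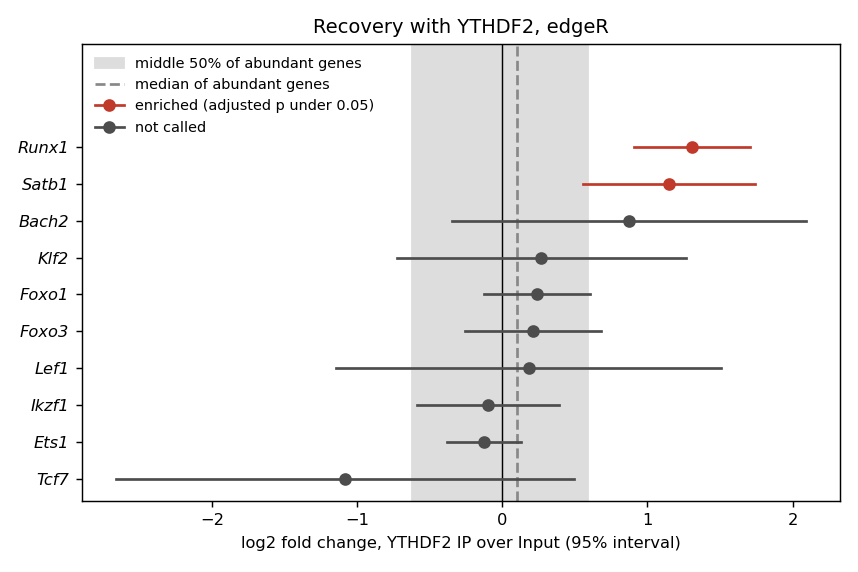
Log2 fold change of YTHDF2 IP over Input for each of the 10 genes, with the 95% interval of edgeR's fit (3 libraries per group); the dashed line and the grey band give the median (0.10) and quartiles (-0.62 and 0.59) of the 3904 genes in the upper quartile of mean level. The intervals of Runx1 and Satb1 lie above 0, those of the other 8 genes span it, and that of Tcf7 is the widest.

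Runx1 (ENSMUSG00000022952; build GRCm38.p6, the mm10 assembly of the files, chromosome 16, 92601466 to 92826074) encodes the DNA-binding subunit of core-binding factor, a partner of FOXP3 in Treg cells. It stood at 163, 129 and 121 CPM in Input libraries 1, 2 and 3 and at 356, 355 and 312 CPM in the IP libraries. Every IP library lay above every Input library, and the 9 ratios of an IP to an Input library ran from 1.91 to 2.95. The log2 fold change was 1.31 ± 0.18 (SE), with a 95% interval of 0.91 to 1.71 and an edgeR adjusted p of 0.00169. This was the highest fold change of the list, above 96.7% of the genes in the upper quartile of level. Between libraries, its levels had a coefficient of variation (CV) of 7.35% in the IP and 16.4% in the Input. Genes of the upper quartile had median CVs of 24.2% (IP) and 11.6% (Input). Runx1 thus varied less than the median of these genes in the IP and more in the Input. Runx1 remained called under all 16 alternative settings, with adjusted p-values up to 0.0426.

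Satb1 (ENSMUSG00000023927; chromosome 17, 51736187 to 51833290) encodes a chromatin organiser that is prominent in thymocytes and needed for the Treg enhancer landscape. Its levels were 233, 156 and 123 CPM in the Input and 465, 385 and 288 CPM in the IP. The groups did not overlap, but the lowest IP library was only 1.24 times the highest Input library. The log2 fold change was 1.15 ± 0.26 (SE), with a 95% interval of 0.56 to 1.74 and an edgeR adjusted p of 0.0230. In each group library 1 was the highest and library 3 the lowest. The call was lost when any of 4 single libraries was left out. The adjusted p in edgeR was 0.119 without IP library 1, 0.0990 without IP library 2, 0.0911 without Input library 2 and 0.117 without Input library 3.

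The enrichment of both genes can also be read within each library, where no scaling between libraries enters. Ets1, the gene of the list with the most reads, serves as the yardstick, a choice made after the values were seen. For every 100 Ets1 reads there were 12.5, 9.63 and 9.28 Runx1 reads in the Input libraries and 31.7, 28.1 and 25.2 in the IP libraries. Satb1 gave 17.8, 11.7 and 9.46 reads per 100 Ets1 reads in the Input and 41.4, 30.5 and 23.3 in the IP. For both genes the IP values lay above all Input values. These ratios show unequal recovery of Ets1 and the 2 enriched genes, and say nothing of which of them moved.

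**Figure D2:**
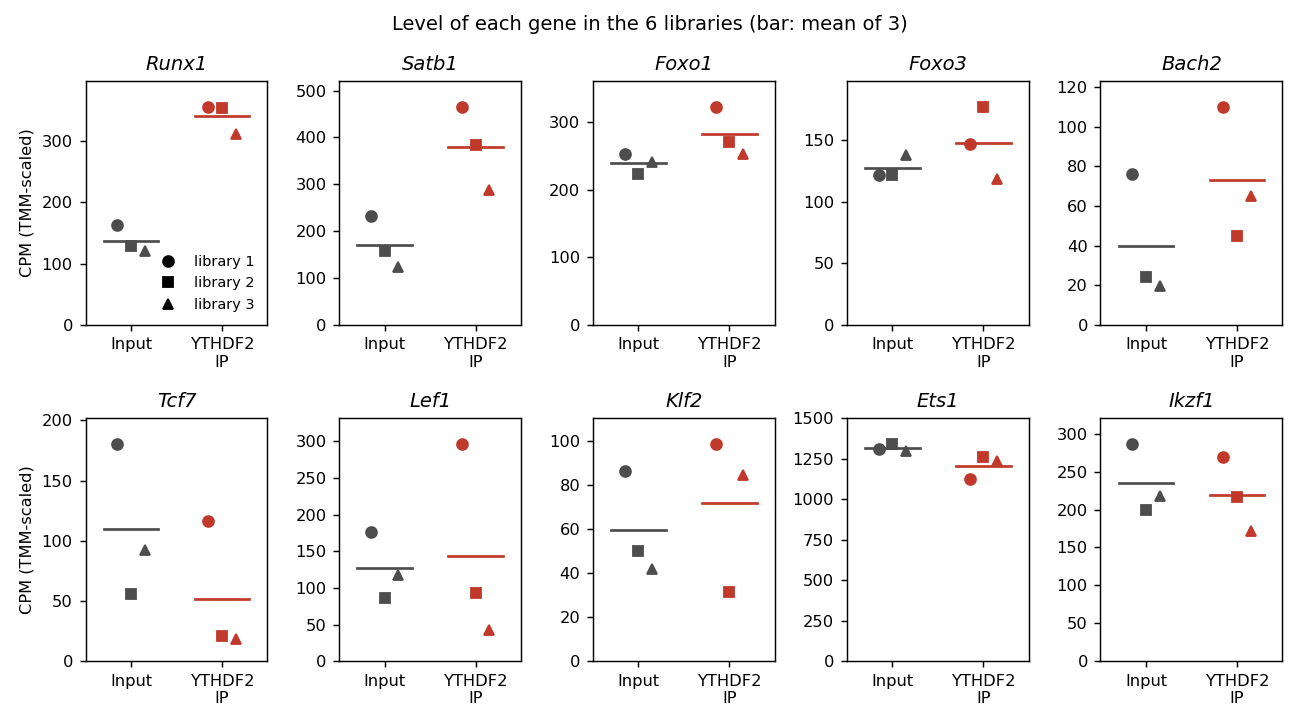
CPM (TMM-scaled, linear axis from 0, own range for each gene) of the 10 genes in the 3 Input and 3 YTHDF2 IP libraries; symbols give the library number and bars the mean of 3. Runx1 and Satb1 lie higher in every IP library, Ets1 differs little, and Bach2, Tcf7, Lef1 and Klf2 spread widely within each group, with library 1 highest in both.

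Neither gene of the FOXO pair passed the test. Foxo1 (ENSMUSG00000044167; chromosome 3, 52268337 to 52350109) encodes the main FOXO factor of T cells, which drives Il7r and Klf2. It stood at 253, 223 and 241 CPM in the Input and at 322, 271 and 253 CPM in the IP. The groups did not overlap, by a margin of less than 1 CPM between Input library 1 and IP library 3. In the upper quartile of level, 28.5% of genes had all IP libraries above all Input libraries, and 3 of the 10 genes did (Runx1, Satb1 and Foxo1). For Foxo1 the log2 fold change was 0.24 ± 0.16 (SE), with a 95% interval of -0.12 to 0.60 and an edgeR adjusted p of 0.451. Foxo3 (ENSMUSG00000048756; chromosome 10, 42181845 to 42276695) encodes a related factor with overlapping targets. Its levels of 122, 122 and 138 CPM in the Input and 147, 177 and 119 CPM in the IP overlapped. Its log2 fold change was 0.21, with a 95% interval of -0.26 to 0.68. The fit thus leaves room for a rise of up to 1.52-fold for Foxo1 and 1.60-fold for Foxo3.

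Bach2 (ENSMUSG00000040270; chromosome 4, 32238413 to 32586109) encodes a repressor that limits effector differentiation and is required for stable Treg cells. Its levels were 76.0, 24.3 and 19.8 CPM in the Input and 110, 44.7 and 65.2 CPM in the IP. Input library 1 lay above IP libraries 2 and 3, so the groups overlapped. The estimate of 1.83-fold was the third highest of the list, but its 95% interval ran from 0.786-fold to 4.26-fold, and edgeR's adjusted p was 0.401. Without Input library 1 the log2 fold change of Bach2 was 1.65 in place of 0.87, with an edgeR adjusted p of 0.0792, still not called. Input levels of Bach2 had a CV of 78.1%, the widest among the 10 genes in the Input.

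Klf2 (ENSMUSG00000055148; chromosome 8, 72319062 to 72321654) encodes the factor that drives S1pr1 and so keeps T cells recirculating. Its levels were 86.5, 50.2 and 41.8 CPM in the Input and 98.7, 31.6 and 84.8 CPM in the IP. The IP libraries lay on both sides of the Input libraries. Klf2 had a log2 fold change of 0.27 ± 0.44 (SE), with a 95% interval of -0.73 to 1.27.

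Tcf7 and Lef1 encode closely related high-mobility-group factors that act with beta-catenin and Groucho-type corepressors. Tcf7 (ENSMUSG00000000782; chromosome 11, 52246527 to 52283383) stood at 181, 56.0 and 92.8 CPM in the Input and at 116, 20.8 and 18.5 CPM in the IP. IP libraries 2 and 3 lay below all Input libraries, and IP library 1 lay above Input libraries 2 and 3. The fitted log2 fold change was -1.08 ± 0.70 (SE), the lowest of the list, with a 95% interval of -2.66 to 0.49 and an edgeR adjusted p of 0.425. Without IP library 1 Tcf7 was called depleted, at a log2 fold change of -2.54 and an edgeR adjusted p of 0.0396. With all 6 libraries and the library number as a replicate block it was called depleted as well, at -1.46 and an edgeR adjusted p of 0.00696, although the labels do not say that equal numbers are paired. Lef1 (ENSMUSG00000027985; chromosome 3, 131110297 to 131224357) stood at 176, 86.0 and 118 CPM in the Input and at 296, 92.9 and 42.2 CPM in the IP. These IP libraries spanned the whole Input range. Lef1 had a log2 fold change of 0.18 ± 0.59 (SE), with a 95% interval of -1.14 to 1.51, and without IP library 1 it was -0.96.

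The 2 pairs of close paralogs were also compared as ratios of their reads within a library, with 1 read added to each gene. The size of such a ratio depends on the lengths of both transcripts, so only its shift between Input and IP is read. The log2 ratio of Tcf7 to Lef1 was 0.037, -0.62 and -0.35 in the Input and -1.35, -2.15 and -1.18 in the IP. All IP libraries lay below all Input libraries, and the mean fell by 1.25 on the log2 scale, or 2.38-fold. Relative to Lef1, less Tcf7 was thus counted in every IP library than in any Input library. An exact permutation test (two-sided) gave p = 0.1, the smallest that 3 against 3 libraries allow, and 0.2 after adjustment over the 2 pairs. The log2 ratio of Foxo1 to Foxo3 was 1.05, 0.87 and 0.80 in the Input and 1.13, 0.61 and 1.09 in the IP. Here the groups overlapped, with a mean difference of 0.039 (exact two-sided permutation test, p = 0.8, adjusted p = 0.8).

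**Figure D3:**
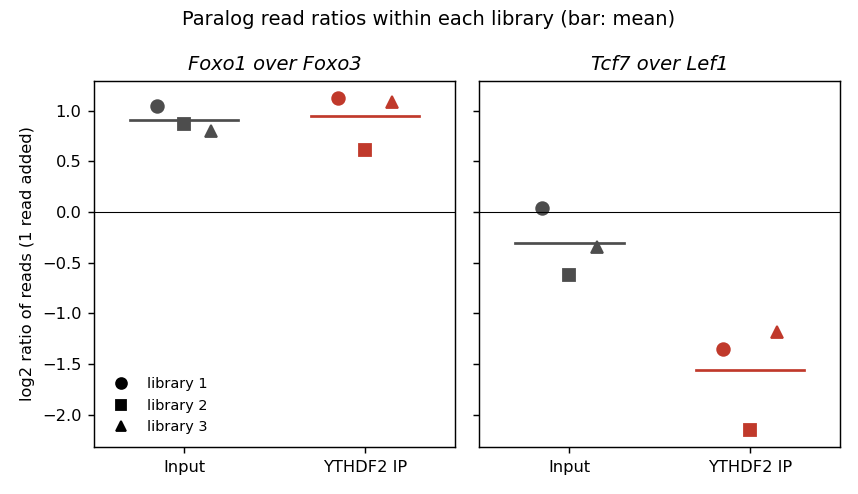
Log2 ratio of the reads of 2 paralogs within each library (1 read added to each), for Foxo1 over Foxo3 and Tcf7 over Lef1; symbols give the library number and bars the mean of 3. For Foxo1 over Foxo3 the IP and Input values overlap, while for Tcf7 over Lef1 the IP values from -2.15 to -1.18 lie below the Input values from -0.62 to 0.037.

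Ets1 and Ikzf1 had fold changes near 1. Ets1 (ENSMUSG00000032035; chromosome 9, 32636241 to 32757820) encodes the founding member of the ETS family, which supports T cell survival and Foxp3 transcription. It stood at 1310, 1341 and 1299 CPM in the Input and at 1122, 1259 and 1236 CPM in the IP. Every IP library lay below every Input library, as for 27.9% of genes in the upper quartile of level, and Ets1 was the 1 gene of the 10 in this class. The difference was small: the fold change was 0.916, with a 95% interval of 0.769 to 1.09, and the adjusted p was 0.603 in edgeR's test. This direction turned with upper quartile factors, which gave a log2 fold change of 0.074. Ikzf1 (ENSMUSG00000018654; chromosome 11, 11684962 to 11772930) encodes Ikaros, a zinc finger factor of lymphoid cells. Its levels of 286, 199 and 218 CPM in the Input overlapped those of 269, 216 and 172 CPM in the IP. Its log2 fold change was -0.098 ± 0.22 (SE), with a 95% interval of -0.59 to 0.39. The sign turned with upper quartile factors, at 0.0995, and with total counts, at 0.019.

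Levels of several of the genes varied between libraries of the same group. In library 1 of the Input, Bach2 was 3.45 times the mean of Input libraries 2 and 3. The same ratio was 2.43 for Tcf7, 1.88 for Klf2, 1.72 for Lef1 and 1.67 for Satb1. In the IP, library 1 was 5.91 times the mean of libraries 2 and 3 for Tcf7, 4.39 times for Lef1, 2.00 times for Bach2 and 1.70 times for Klf2. Foxo3 and Ets1 were not higher in library 1, with ratios of 0.937 and 0.993 in the Input and 0.995 and 0.899 in the IP.

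This comparison of libraries was chosen after the values were seen, and with 1 library on its side it carries no test. A ratio of at least 1.5 in Input library 1 was found for 5 of the 10 genes, against 3.36% of genes in the upper quartile of level. In IP library 1 it was found for 4 of 10 against 12.9%, and in both libraries 1 for 4 of 10 against 1.43%. The 4 genes high in both were Bach2, Tcf7, Lef1 and Klf2. The median ratio of the upper quartile was 1.01 in each group, which the TMM scaling itself holds near 1. Library 1 was the highest in both groups for 8 of the 10 genes, and for 17.9% of genes in the upper quartile. In these bulk libraries, more cells that express a gene and more of its RNA per cell cannot be told apart. Without the libraries numbered 1 of both groups, the log2 fold change was 1.39 for Runx1, with an edgeR adjusted p of 0.0426. It was 1.24 for Satb1, with an adjusted p of 0.101, so that 1 of the 10 genes was enriched, and it was 1.29 for Bach2, -1.95 for Tcf7 and -0.62 for Lef1, none of them called.

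**Figure D4:**
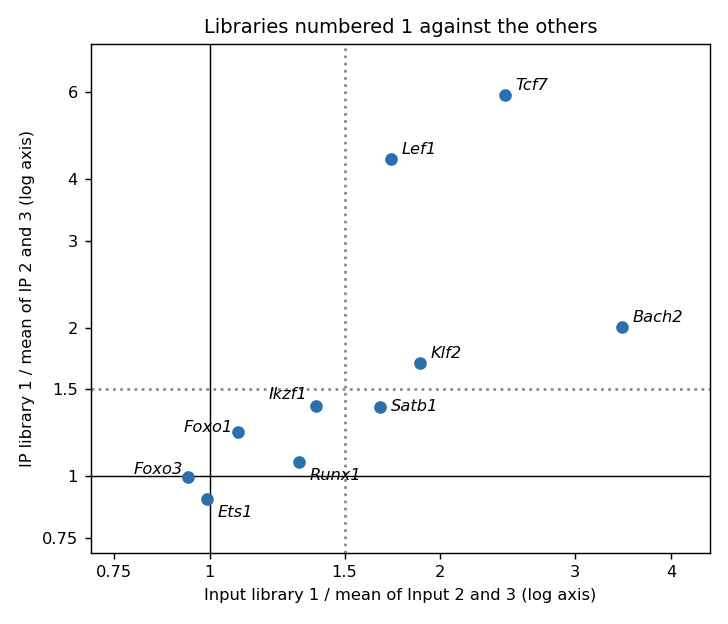
Level in library 1 divided by the mean of libraries 2 and 3 of the same group, in the Input (horizontal) and in the IP (vertical), on log axes; each point is 1 gene and dotted lines mark 1.5-fold. Bach2, Tcf7, Lef1 and Klf2 lie beyond 1.5-fold on both axes, and Foxo3 and Ets1 lie near 1.

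All fold changes are relative to the scaling. Upper quartile factors moved the median log2 fold change of all genes from -0.12 to 0.08, and library sizes from all reads moved it to -0.65. With library sizes from all reads, Runx1 was still called enriched at a log2 fold change of 0.78. Satb1 was not called there, at 0.61 with an edgeR adjusted p of 0.168. In the same setting Ets1 was called depleted, with an edgeR adjusted p of 0.00557, at a log2 fold change of -0.65 that equals the median of all genes to 2 decimals. Foxo1, Foxo3, Lef1 and Klf2 had values below 0 and were not called.

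**Figure D5:**
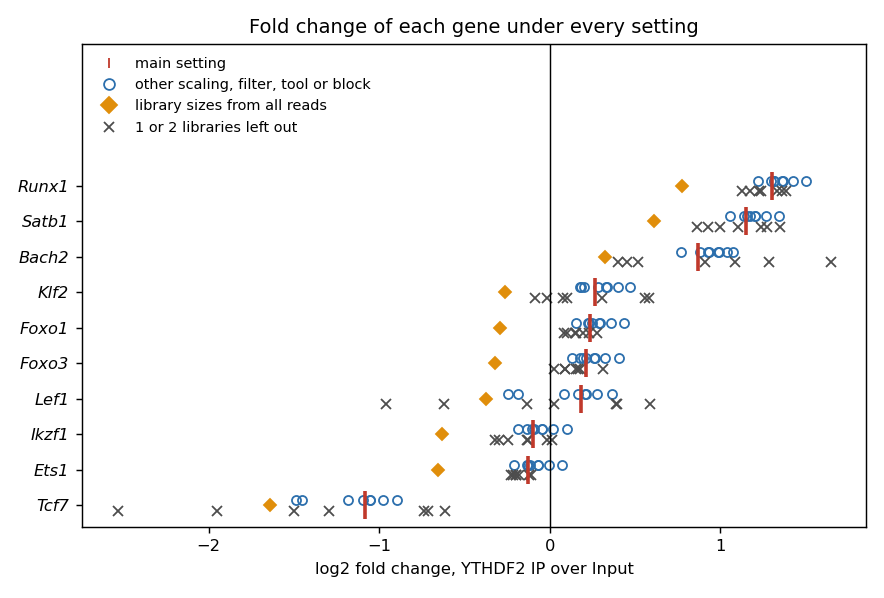
Log2 fold change of YTHDF2 IP over Input for each gene under the main setting and the 16 alternatives (other scaling, filters, tools, a replicate block, and libraries left out). Runx1, Satb1 and Bach2 stay above 0 and Tcf7 below 0 in all of them, the other 6 genes change sign at least once, and the widest range is that of Tcf7, from -2.54 to -0.61.

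By position and annotation the 10 genes are protein-coding and lie on 8 chromosomes of the mouse build GRCm38.p6 in the RefSeq gene table. Gene spans ran from 2593 bp for Klf2 to 347697 bp for Bach2. The span of Runx1 was 224609 bp and that of Satb1 97104 bp. Spans include introns and are not transcript lengths, and levels are not compared between genes here. Another gene model overlapped the span of 5 genes. These were Gm38485 at Foxo3, Bach2os at Bach2, Gm30281 at Runx1 and Gm11999 at Ikzf1, all long noncoding RNAs, and the protein-coding Skp1 at Tcf7. The strand setting of the counting is not given in the sources used here, so for these 5 genes reads of the overlapping model could have been counted with the gene or set aside as ambiguous. Foxo1, Satb1, Lef1, Klf2 and Ets1 had no such overlap. Transcript sequences were not analysed here, so m6A motifs in these mRNAs were not counted.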

How the data were processed

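RNA was measured by YTHDF2 immunoprecipitation sequencing, with libraries from a stranded total RNA kit per the labels' protocols. The authors deposited raw counts of reads per Ensembl gene ID, 1 file per library. Trimmomatic 0.39, HISAT2 2.1.0, HTSeq, DESeq2 and build mm10 are named in the submitters' processing notes with no role or order. Annotation release, strand setting and duplicate handling were not stated in those sources. The 5 HTSeq summary categories and 92 spike-in IDs stayed out of all tests. They entered library sizes only in the setting that takes library sizes from all reads.

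Counts were fitted with edgeR 4.0.16 in R 4.3.3 over all genes (filterByExpr, TMM factors, robust quasi-likelihood, group as the only term, two-sided, adjusted p threshold 0.05). Standard errors and 95% intervals of log2 fold changes were derived from the F statistics. The fit was also run on simulated counts with known fold changes, drawn from its own means and dispersions. Such a run checks the code and cannot show whether the model holds for these libraries. Alternatives were other scaling factors, other filters, DESeq2 1.42.0, limma voom 3.58.1, a replicate block and libraries left out; leaving out both libraries numbered 1 was chosen after the data were seen. The 10 genes and all lists were chosen with earlier results of these data known, and all 10 are named. Their symbols came with the choice of IDs, and all 10 symbols matched the RefSeq gene table, which holds 0 Ensembl IDs in 49997 entries. No 2 libraries of a group were sequencing repeats of 1 library: chi-square per degree of freedom was at least 16.1. That value does not tell whether libraries of a group came from separate lysates or pools. Without molecular identifiers, counts are reads and not molecules.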

Additional observations from a re-analysis of the deposited data

Results flagged for a closer look

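Reads outside annotated features are not part of the gene counts, and their share was higher in the IP: 71.7% of the reads in an IP file on average, against 50.4% for the Input. The IP files ran from 71.2% to 72.1% and the Input files from 49.6% to 51.6%. Their part in the fold changes of the 10 genes was not tested, apart from the setting that takes library sizes from all reads.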

How the results depend on the processing

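Of the 10 genes, Runx1, Satb1, Bach2 and Tcf7 kept their direction in all 16 alternatives, and Runx1 kept its call in all of them. Satb1 was called in 10 of 16. Library sizes from all reads left 1 of the 10 genes enriched (Runx1) and 1 depleted (Ets1), with a median of -0.31 in place of 0.23, and 155 genes were enriched and 1924 depleted over all genes, against 676 and 954. Values that turned there were -0.29 for Foxo1, -0.32 for Foxo3, -0.37 for Lef1 and -0.26 for Klf2. With upper quartile factors the median of the 10 was 0.42, 1081 genes were enriched, and Ets1 (0.074) and Ikzf1 (0.0995) turned; Ikzf1 also turned with total counts (0.019). A filter of 1 CPM in all libraries gave 1030 enriched genes, DESeq2 1382 enriched and 2085 depleted, and limma voom 1715 depleted, with Lef1 at -0.24. For these shifts, the cause was not tested.

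With a replicate block, 1 of the 10 genes was depleted: Tcf7, at -1.46 edgeR adjusted p 0.00696, and Lef1 turned to -0.19. Bach2 stood at 1.04 with the block, at an edgeR adjusted p of 0.0731, and was not called. The Input was kept from the lysate before precipitation, so IP and Input libraries may be paired. The labels do not say that equal numbers share a lysate, and for that reason the main fit did not pair them. Any variation that pairs share therefore stays in the error of the main fit. Deviations of same-numbered libraries correlated at 0.0999, 0.0260 and 0.0242 over genes tested. In the upper quartile of level, where all 10 genes lie, these were 0.325, 0.177 and 0.0315. Unlike-numbered libraries were not compared in this way, so these correlations cannot decide whether equal numbers are paired. The block changed neither the Runx1 nor the Satb1 call.

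Leaving out libraries gave 1 to 2 enriched and 0 to 1 depleted genes of the 10, a median of 0.0011 to 0.31, 73 to 999 enriched and 228 to 1661 depleted genes over all genes. The lowest counts came from leaving out both libraries numbered 1. Tcf7 was the depleted gene without IP library 1. The Foxo1 over Foxo3 shift ranged from -0.054 to 0.20, and that of Tcf7 over Lef1 kept its sign. Lef1, Klf2 and Ikzf1 turned sign in such fits, with Lef1 at -0.13 without Input library 2, -0.96 without IP library 1 and -0.62 without both libraries 1, Klf2 at -0.016 without Input library 3 and -0.084 without IP library 1, and Ikzf1 at 0.016 without IP library 3. The highest values were 0.59 for Lef1 and 0.58 for Klf2, and the lowest for Ikzf1 was -0.32. With 2 libraries in a group, lower power and any influence of the left-out library are mixed.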
